A study of Mus musculus with 4 samples.

Results

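Serine protease inhibitors of the Kunitz and Kazal families are among the secreted products of the epididymis, the long coiled tubule in which sperm mature after leaving the testis. A Kunitz or a Kazal domain is a small, disulfide-bonded fold with an exposed loop that enters the active site of a protease and blocks it. In the male tract such inhibitors are known for restraining proteases of sperm and luminal fluid, and the principal cells that line the tubule secrete most of the luminal proteins, with different products in successive segments. Described here are 8 genes out of the 16892 in the matrix: 3 of the Kunitz family (*Spint3*, *Spint4* and *Spint5*) and 5 of the Kazal family (*Spink5*, *Spink10*, *Spink11*, *Spink12* and *Spink14*). They were picked by name, and all 8 had counts.

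The data are 4 single-cell RNA-Seq libraries, 1 each from the caput, corpus and cauda epididymis and the vas deferens. Each library was made from a pool of 8 tissue pieces of the same 4 FVB/NJ male mice, which were 10 to 12 weeks old, and sperm were washed out before the cells were dissociated. With 1 library for each segment there is no replicate, so values carry intervals for counting error only (95%), and no difference between segments could be tested. The libraries held 1433 to 3506 cells and 4408989 to 10744928 unique molecular identifiers (UMIs, each standing for 1 captured transcript), and the 3956 principal cells held 9564385 UMIs. The 10 marker genes of principal cells had a summed level of 89490 in principal cells against at most 2853 in any other cell type, and 9 of the 10 were highest there. The authors named the cell types by marker genes in the same counts, so this describes the label and does not test it. Of the cell barcodes, 43 occurred in more than 1 library (86 cells), and for 0 of them did the cells carry the same population name.

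Levels are UMIs of a gene per 1000000 UMIs of a group of cells (UPM). The libraries tag the 3′ ends of transcripts, and levels are compared between groups of cells and not between genes. Before deposit, the authors subtracted cell-free RNA from every cell, and this left a mark on these genes. In the corpus library, 0 of the 92 principal cells with *Spint4* held exactly 1 UMI of it, and in the cauda library, where the gene was nearly absent, the 1 positive cell held 1. In caput principal cells the lowest count of *Spink11* was 4. A cell listed at 0 for a gene that is abundant in its library may therefore have had a few UMIs before the subtraction, and shares of cells and intervals are given for the counts as deposited.

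The Kunitz genes lie together on chromosome 2. In the RefSeq annotation of GRCm38.p6, *Spint4* (positions 164698501 to 164702448) and *Spint5* (164715305 to 164718068) are direct neighbours 12856 bases apart, with 0 protein-coding genes between them. *Spint3* (164569695 to 164573456) lies 125044 bases before *Spint4*, with 9 protein-coding genes between, all but 1 with a *Wfdc* symbol. Over all pairs of the 8 genes and 2 relatives (*Spink2* and *Spink8*), the longest run of bases shared by 2 GENCODE transcripts was 14 bases.

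*Spint4* and *Spint5* had their highest level in the same group of principal cells and *Spint3* in another (as described further on). For this reason the 250 bases before the annotated start of each are printed here, read 5′ to 3′ toward the gene. They are from RefSeq (GRCm38.p6), at chr2:164698251-164698500 on the plus strand for *Spint4*, chr2:164715055-164715304 on the plus strand for *Spint5* and chr2:164573457-164573706 on the minus strand for *Spint3*. Capitals mark matches to 3 motifs that were searched on both strands: TATAAA (the TATA box), TGTTCT (a half-site of the androgen receptor) and AGGAAG (a core of ETS factors).
Spint4: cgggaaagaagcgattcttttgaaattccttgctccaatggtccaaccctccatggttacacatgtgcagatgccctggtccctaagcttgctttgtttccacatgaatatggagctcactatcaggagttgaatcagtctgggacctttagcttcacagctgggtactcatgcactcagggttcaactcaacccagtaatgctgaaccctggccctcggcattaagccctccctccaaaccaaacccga
Spint5: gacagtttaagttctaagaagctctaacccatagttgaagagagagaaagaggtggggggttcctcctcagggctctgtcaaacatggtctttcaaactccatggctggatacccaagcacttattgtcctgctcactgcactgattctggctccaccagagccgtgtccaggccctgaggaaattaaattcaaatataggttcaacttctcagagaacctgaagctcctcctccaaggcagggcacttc
Spint3: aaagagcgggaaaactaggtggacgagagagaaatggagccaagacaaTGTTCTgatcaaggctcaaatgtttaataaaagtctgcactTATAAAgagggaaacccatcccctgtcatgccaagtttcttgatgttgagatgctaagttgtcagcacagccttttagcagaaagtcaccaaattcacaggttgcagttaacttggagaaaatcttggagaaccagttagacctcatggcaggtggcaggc
The *Spint4* and *Spint5* windows held none of the 3 motifs. The *Spint3* window held TGTTCT at bases -202 to -197 and TATAAA at bases -161 to -156, both on the strand of the gene. Of 32851 windows of this length, 12.4% hold TATAAA, 16.1% TGTTCT and 29.5% AGGAAG on either strand, so a match or its absence is a description only. The motifs do not overlap in the *Spint3* window.

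All 8 genes were principal cell genes, with 94.2% (*Spink5*) to 97.8% (*Spink10*) of their UMIs in principal cells. In the library in which principal cells had the highest level, all 8 were at least 4 times higher in principal cells than in each of the other 6 cell types (basal, clear, stromal, muscle, endothelial and immune). The same rule was met by 1.76% of 9122 genes (those reaching 20 UMIs in the group). For *Spint4*, *Spint5* and *Spink11* the closest type was muscle, with 7 cells and 0 UMIs in the corpus, and for *Spink5* and *Spink12* it was immune cells, with 11 cells and 0 UMIs in the caput. For *Spink10* it was endothelial cells, with 12 cells and 0 UMIs in the cauda, so that 6 of the 8 comparisons rest on the floor of 3 UMIs. Along the tract, 3 of the 8 genes (*Spint4*, *Spint5* and *Spink14*) were restricted to the principal cells of a single library by the same 4-fold rule, against 6.61% of the 9122 genes. By library, this share of all genes was 2.97% for caput, 1.46% for corpus, 0.614% for cauda and 1.57% for vas deferens. Of the 8 genes, 2 had their highest level in caput, 3 in corpus and 3 in cauda principal cells.

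**Figure D1:**
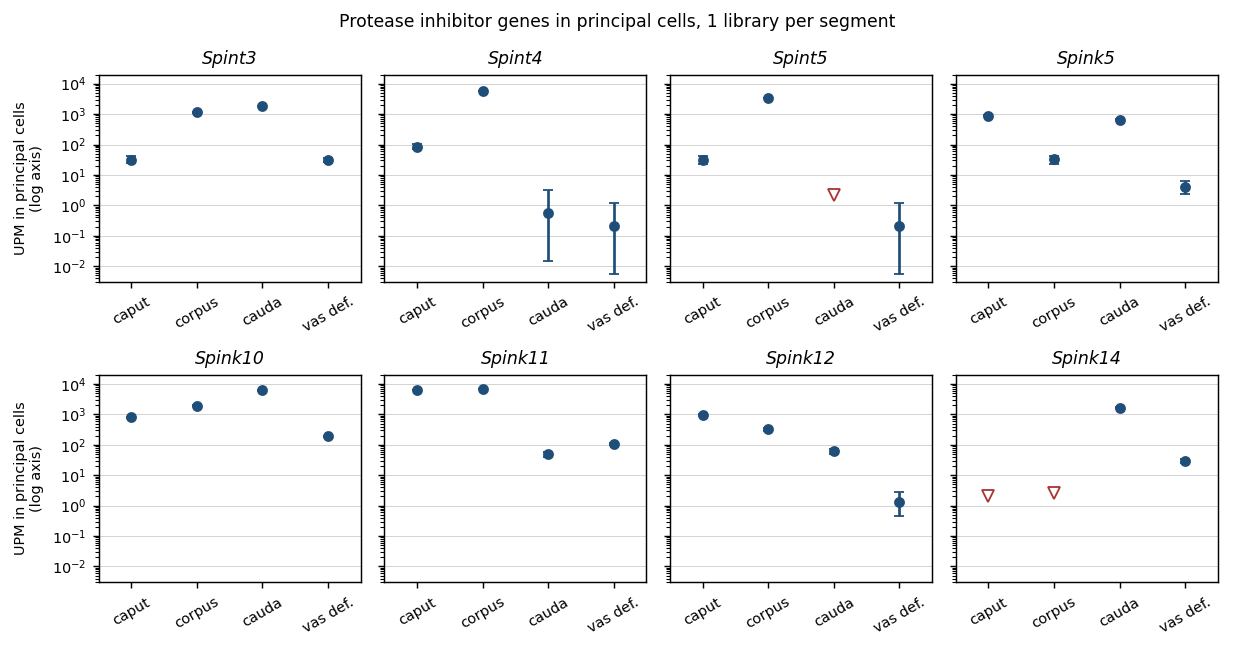
Level of each gene (UPM, log axis) in the principal cells of the 4 libraries, 1 library per segment; bars are exact Poisson 95% intervals and open triangles mark the upper limit where no UMI was found. *Spint4* and *Spint5* peak in the corpus at 5788 and 3409 UPM, *Spink14* appears in the cauda at 1670 UPM, and *Spink5* is high in caput and cauda and low in the corpus between them.

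The Kunitz gene *Spint4* was a corpus gene. Principal cells of the corpus held 8212 of its 8727 UMIs, at 5788 UPM (5664 to 5915). The caput held 147 UMIs in principal cells (85.3 UPM, 72.1 to 100), and the cauda and the vas deferens held 1 UMI each. The level in the corpus was 67.9 times that in the caput (57.6 to 80.4). The caput value came largely from 1 cell of 3386 UMIs, which held 120 of the 147 *Spint4* UMIs. Its neighbour *Spint5* followed the same order, with 3409 UPM in corpus principal cells (4836 UMIs) and 31.3 in those of the caput (54 UMIs). It had 1 UMI in the vas deferens and 0 in the cauda. The corpus level of *Spint5* was 109 times the caput level (83.2 to 145). The same caput cell held 37 of the 54 *Spint5* UMIs. When the cell with the most UMIs was left out of each library, a step added after seeing the data, the corpus to caput ratio became 321 for *Spint4* and 310 for *Spint5*. *Spint3*, the third Kunitz gene of the cluster, reached further down the tract. Its principal cell level rose from 31.9 UPM (caput) to 1135 (corpus) and 1850 (cauda), and was 30.5 in the vas deferens. The cauda level was 1.63 times the corpus level (1.53 to 1.73).

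The Kazal genes all lie on chromosome 18, where *Spink5*, *Spink14*, *Spink12* and *Spink11* fall in this order in 1 run of 8 genes and *Spink10* lies outside it. *Spink5*, which encodes an inhibitor with many Kazal-type domains best known from the epidermis, was high at both ends of the epididymis and low in between. Caput principal cells held it at 882 UPM (838 to 927) and cauda principal cells at 660 (622 to 699). Corpus principal cells held 32.4 UPM (23.7 to 43.2) and vas deferens cells 4.06. The caput was thus 27.2 times the corpus (20.3 to 37.3) and 1.34 times the cauda (1.24 to 1.44). None of the other 7 genes had its lowest epididymal level in the corpus between higher levels on both sides. *Spink12* fell along the tract, with levels of 958 (caput), 321 (corpus), 62.1 (cauda) and 1.28 UPM (vas deferens, 6 UMIs).

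*Spink11* had nearly equal pooled levels in caput (6369 UPM, 6251 to 6490) and corpus (6857 UPM, 6722 to 6995), a corpus over caput ratio of 1.08 (1.05 to 1.11). The order turned with the weighting of cells: with every cell counted equally the ratio was 0.635, and with the deposited size factors 0.650. In the cauda *Spink11* was at 48.3 UPM and in the vas deferens at 108. *Spink10* rose along the epididymis instead, with 805 (caput), 1939 (corpus) and 6155 UPM (cauda), and vas deferens cells were at 189. *Spink14* had 0 UMIs in the 736 caput and the 929 corpus principal cells, where 3 UMIs would correspond to 1.74 and 2.11 UPM. In the cauda it was at 1670 UPM (1610 to 1732), and in the vas deferens at 29.7 UPM (139 UMIs), so that the cauda was 56.3 times the vas deferens (47.4 to 67.2). Of the 139 UMIs, 42 were in 1 cell that the table places in principal 8. Against that floor the cauda level was at least 959 times the caput level and at least 790 times the corpus level, with counting intervals that start at 328 and 270.

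The deposited table divides principal cells into 15 subclusters, numbered here from the proximal end, with principal 1 to 11 mostly from the epididymis and 12 to 15 mostly from the vas deferens. The subclusters were made from the same counts, so the levels that follow are a description. The highest subcluster was principal 7 for *Spint4* and *Spint5*, principal 3 for *Spink5* and *Spink12*, and principal 10 for *Spink10*. It was principal 4 for *Spink11* and principal 8 for *Spint3*. The largest value of *Spink14* was in principal 10, but principal 8 did not differ from it beyond counting error. Of the 8 genes, *Spint4* and *Spint5* had the largest ratios of the highest to the next subcluster. *Spint4* was at 12000 UPM in principal 7 and 698 in the next, principal 6, a ratio of 17.2 (15.3 to 19.4), and *Spint5* was at 6581 and 911 in the same subclusters, a ratio of 7.22 (6.51 to 8.03). In principal 6, 1 cell of 1819 UMIs held 196 of the 297 *Spint4* and 144 of the 388 *Spint5* UMIs. Without the highest cell of each subcluster, a step added after seeing the data, *Spint4* was at 10431 UPM in principal 7 and 270 in the next, now principal 5 (ratio 38.6, 32.5 to 46.3), and *Spint5* was at 5871 in principal 7 and 576 in principal 6 (ratio 10.2, 8.96 to 11.7). The 38 cells of principal 7 with at least 10 *Spint4* UMIs held 7660 of its 7726 *Spint4* and 4031 of its 4237 *Spint5* UMIs. Leaving them out of principal 7 only, with principal 6 kept whole, had to lower principal 7. Both genes were then highest in principal 6, so this step is no test of the order. Of 5996 genes with at least 20 UMIs in their highest subcluster, 12 (0.2%) stood 4-fold or more there above all others, and *Spint4* and *Spint5* were among them.

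**Figure D2:**
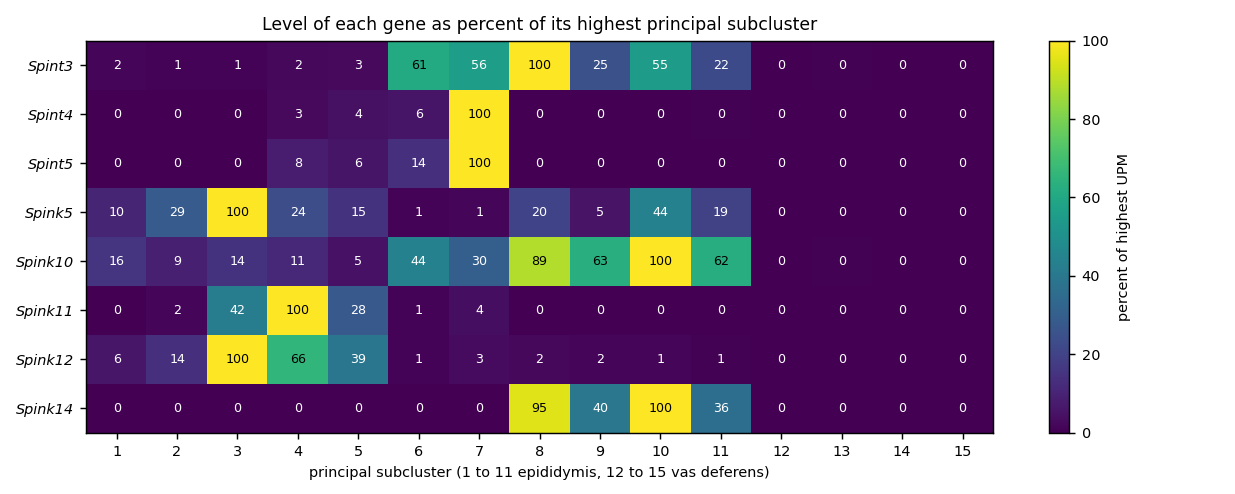
Level of each gene in the 15 principal subclusters as percent of its own highest subcluster (columns run from proximal to distal). *Spint4* and *Spint5* stand out in principal 7, *Spink11* and *Spink12* fill principal 3 to 5, and *Spink14* is found in principal 8 to 11.

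The Kazal genes with a proximal peak had broader profiles. *Spink11* reached 56494 UPM in principal 4, that is 6498 UMIs in 74 cells, and was at 23665 in principal 3, 15823 in principal 5 and 2133 in principal 7. All 74 cells of principal 4 held at least 1 UMI of it. *Spink12* was at 3500 UPM in principal 3 and 2304 in principal 4, a ratio of 1.52 (1.31 to 1.76). *Spink5* was at 2760 UPM in principal 3, and its next subcluster was the distal principal 10 at 1218 (ratio 2.27, 1.98 to 2.59). Between them it was at 25.8 in principal 6 and 32.6 in principal 7, which did not differ beyond counting error. *Spink12*, which shares the proximal peak of *Spink5*, was at 45.3 in principal 10.

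Distally, *Spink10* was at 7217 UPM in principal 10, 6397 in principal 8, 4516 in principal 9 and 4501 in principal 11, and the last pair did not differ beyond counting error. *Spink14* was at 2093 UPM in principal 10 and 1993 in principal 8, a ratio of 1.05 (0.962 to 1.15), so its highest subcluster cannot be named. It had 0 UMIs in principal 1 to 6. *Spint3* was at 2675 UPM in principal 8, 1639 in principal 6, 1485 in principal 7 and 1473 in principal 10, and the last 3 followed each other without a difference beyond counting error. In principal 12 to 15, 5 of the genes were at most at 11.4 UPM and *Spink14* at most at 7.30, and *Spink10* and *Spink11* reached 30.1 and 162 UPM.

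Some subclusters hold at least 20 cells from 2 libraries, which allows a gene to be read in both. There were 4 such subclusters, with 24 pairs of levels. How often other genes differ between the libraries of a subcluster was not computed, so what follows is a description. In principal 5, *Spink5* was at 1065 UPM in the 67 caput cells and 19.7 UPM in the 172 corpus cells, a ratio of 54.2 (24.4 to 150). In the same cells *Spink12* was 3.98 times higher in the caput (3.36 to 4.72) and *Spink11* 1.84 times (1.76 to 1.93), while *Spint5* (0.509 times, 0.350 to 0.727) and *Spint3* (1 UMI in the caput cells and 34 in the corpus cells) were lower there. *Spink10* was at 390 and 347 UPM and did not differ beyond counting error (interval of the ratio 0.819 to 1.53). *Spint4* was at 675 UPM in the caput cells and 423 in the corpus cells of principal 5, the reverse of the whole libraries, and 120 of its 121 caput UMIs were those of the single cell named above. The same cell held 37 of the 41 *Spint5* UMIs of these caput cells, so the size of the *Spint5* ratio rests largely on it. In principal 11, *Spink5* was 11.1 times higher in the 141 cauda cells than in the 100 vas deferens cells (5.28 to 28), *Spint3* 5.22 times (3.14 to 9.31) and *Spink10* 2.42 times (2.11 to 2.78). *Spink11* went the other way, at 55.0 UPM in the cauda cells and 207 in the vas deferens cells (0.266 times, 0.126 to 0.543), and its ratio in principal 9 was 0.337 (0.168 to 0.662). The deposited name was the same for the cells compared, and whether they came from different positions along the tubule was not tested.

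The high level of *Spint4* came from few cells. To compare shares of cells, 1000 UMIs were drawn from each cell and shallower cells were left out, which kept 119 of the 365 cells of principal 7. Of these, 21.8% had a UMI of *Spint4*, at a mean of 11.3 UMIs for each cell. If the same UMIs were spread evenly over the cells, nearly 100% would have one. Without the drawing, 55 of 365 cells (15.1%) held it. Of the 149 genes with a mean of at least 1 UMI in these cells, *Spint4* had the lowest share of cells relative to an even spread, and *Spint5* (35.3%) ranked 7. In the cells as deposited, 5 cells held more than 50% of the *Spint4* UMIs of principal 7, 18 held 90%, and a single cell held 1133 UMIs, 9.61% of all its UMIs. Without the 10 highest cells of each, principal 7 was at 3549 UPM and principal 6 at 14.7. Without the 10 principal cells with the most *Spint4*, the corpus to caput ratio of 67.9 became 21.7, and the same step took *Spint5* from 109 to 50.9. For both genes the 10 cells were corpus cells of principal 7, so only the corpus level was trimmed. The caput cell with 120 of the 147 *Spint4* UMIs stayed in.

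**Figure D3:**
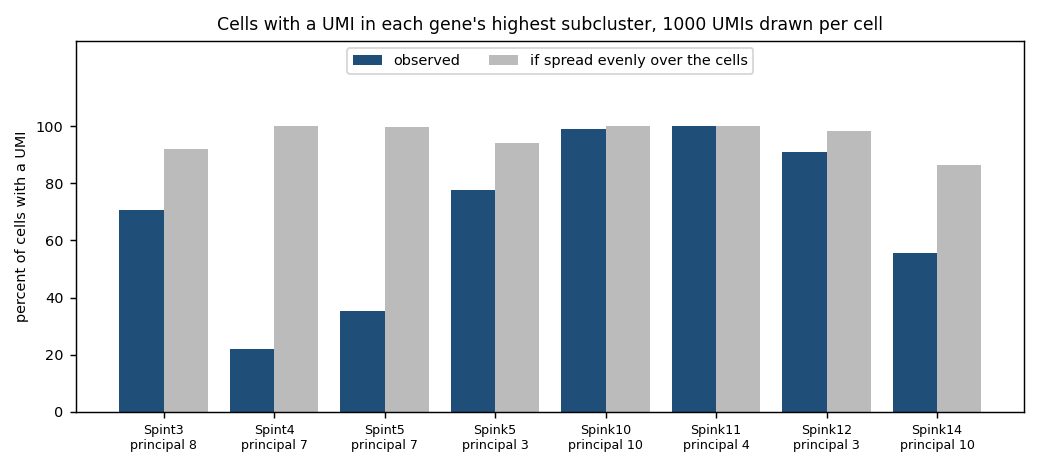
Percent of cells with at least 1 UMI in each gene's highest principal subcluster after 1000 UMIs were drawn from each cell (dark bars), beside the percent for the same UMIs spread evenly over the cells (grey bars). *Spint4* (21.8%) and *Spint5* (35.3%) lie far below their grey bars, and *Spink10* (99.0%) and *Spink11* (100%) reach theirs.

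Of the other 6 genes, all but *Spink14* were near or above the median of abundant genes in how evenly they were spread in their highest subclusters. *Spink11* was found in 100% of the 40 drawn cells of principal 4, *Spink10* in 99.0% of 99 cells of principal 10, *Spink12* in 91.1% and *Spink5* in 77.8% of 45 cells of principal 3, and *Spint3* in 70.5% of 190 cells of principal 8. *Spink14* was found in 55.6% of cells of principal 10 against 86.3% for an even spread, and ranked 5 from the lowest of 78 genes. Without the drawing the shares were 100%, 83.1%, 55.6%, 46.4%, 48.1% and 40.4% in the same order. In principal 10, *Spink14* and *Spink5* were found in the same cells more often than their separate shares give, in 41.4% of cells against 29.7%, with an odds ratio of 7.62 (2.92 to 21.2). In principal 8 the odds ratio of this pair was 1.39 (0.733 to 2.64).

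*Spint4* and *Spint5* were detected in the same corpus principal cells more often than their separate shares give. Among the 346 drawn corpus principal cells, 32 held both (9.25%, 6.41 to 12.8), 12 only *Spint4*, 55 only *Spint5* and 247 neither. Independent detection at these shares would give 3.2% with both, and the odds ratio was 11.9 (5.53 to 27). With another random draw it was 18.4, and with 500 UMIs drawn 18.5. In all 929 corpus principal cells without the drawing, 6.67% held both. Corpus stromal cells held *Spint4* in 2.62% and *Spint5* in 1.97% of 458 drawn cells (unthinned 3.64% and 3.95%), and 0 held both, which allows a share of up to 0.655%. Independent detection would give 0.0515% there, and the interval of the odds ratio (0 to 20.9) includes the principal cell value. In basal cells 1 of 398 held both, with an odds ratio of 5.70 (0.115 to 53.9). The median depth was 658 UMIs in corpus principal cells and 2985 in corpus stromal cells. Corpus clear cells did hold the pair together, in 6 of 81 drawn cells (7.41%, 2.77 to 15.4), with an odds ratio of 17.3 (2.97 to 132), so joint detection was not particular to principal cells. These shares are of the deposited counts, in which low counts of both genes had been removed. Within principal 7 (111 drawn corpus cells), 24 held both, 2 only *Spint4* and 18 only *Spint5*, with an odds ratio of 42.8 (9.27 to 407). Within principal 6 it was 4.49 (0.715 to 32.4) and within principal 5 it was 6.68 (0.793 to 51.5), where the intervals include 1.

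By UMIs the overlap was closer still. In principal 7, 99.4% of the 7726 *Spint4* UMIs lay in cells that also held *Spint5*, and 95.5% of the 4237 *Spint5* UMIs lay in cells that held *Spint4*. Of 16 cells with at least 100 UMIs of *Spint4*, 13 had at least 100 of *Spint5*. The reverse did not hold for cells: 51 cells of principal 7 held *Spint5* without *Spint4*, with at most 13 UMIs of it. In principal 6, 52 of 60 *Spint5* cells had no *Spint4*. The ratio of *Spint4* to *Spint5* UMIs was 1.82 in principal 7 (1.76 to 1.89) and 0.765 in principal 6 (0.656 to 0.893), so the balance of the pair differed between these subclusters beyond counting error. Without the cell with the most *Spint4* in each, the ratios were 1.78 (1.71 to 1.85) and 0.414 (0.325 to 0.524).

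**Figure D4:**
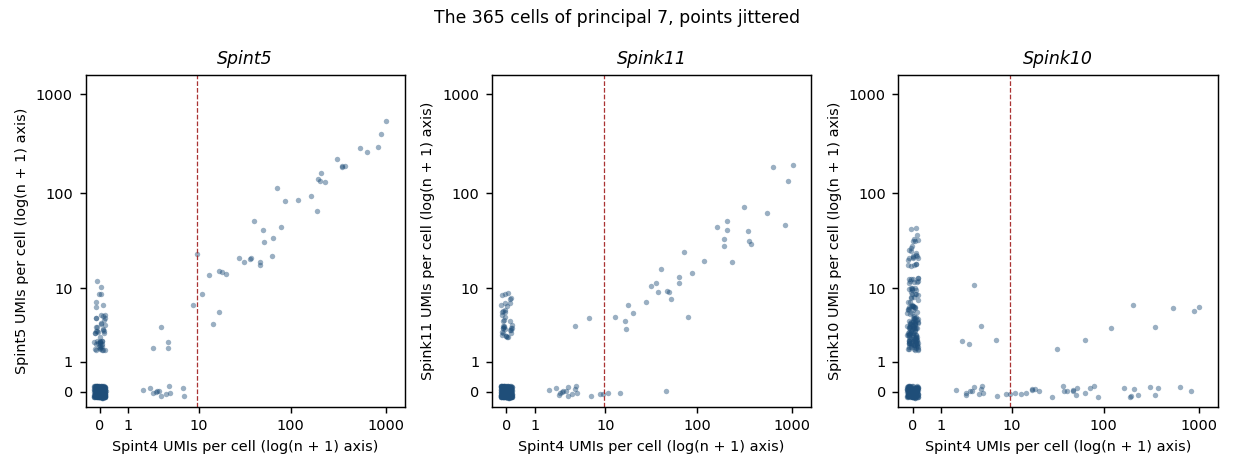
UMIs of *Spint5*, *Spink11* and *Spink10* against UMIs of *Spint4* in the 365 cells of principal 7 (log(n + 1) axes, points jittered, dashed line between 9 and 10 *Spint4* UMIs). *Spint5* and *Spink11* rise with *Spint4* over the 38 cells to the right of the line, and most *Spink10* counts are in cells with no *Spint4*.

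Cells of principal 7 with many *Spint4* UMIs differed from those with none in other inhibitors too. Principal 7 had 38 cells with at least 10 UMIs of *Spint4*, 17 with 1 to 9 and 310 with 0. The 38 cells held 7660 of its 7726 *Spint4* UMIs, all 38 came from the corpus, and 2 of them were called doublets. Outside principal 7, 10 principal cells reached 10 UMIs of *Spint4*. These cells were chosen by their *Spint4* counts, so *Spint4* itself and what follows are given as a description. In the 38 cells *Spint5* was at 29976 UPM and in the 310 cells at 380. *Spink11* was at 8894 UPM in the 38 cells (34 of them positive) and at 338 in the 310, a ratio of 26.3 (22.4 to 31.1), and *Spink12* was at 372 and 36.0, a ratio of 10.3 (5.92 to 18.8). *Spint3* and *Spink10* went the other way. *Spint3* was at 186 UPM in the 38 cells and 1830 in the 310, 9.85 times higher in the latter (6.63 to 15.3). *Spink10* was at 275 and 2681 UPM, 9.74 times higher in the 310 cells (7.03 to 13.9). *Spink5* was low in both, at 44.6 and 30.0 UPM, and did not differ beyond counting error. The 17 cells with 1 to 9 *Spint4* UMIs were at 1686 UPM for *Spint3* and 2318 for *Spink10*, near the levels of the 310 cells. They had 0 UMIs of *Spink12*, with an upper limit of 389 UPM, which lies above the levels of both the 38 and the 310 cells. Of the principal cell markers, *Npy*, a neuropeptide gene, was at 461 UPM in the 38 cells and 3877 in the 310. *Crisp1*, which encodes a sperm-coating protein, was at 8797 and 39496, and *Ptgds* at 186 and 5063. Other markers did not follow this direction: *Gpx3* was at 3599 and 3885, and *Lcn5* was higher in the 38 cells, at 11839 and 658. The median depth was 1313 UMIs in the 38 cells, 306 in the 17 and 440 in the 310. Whether the 38 cells are a population of their own was not tested.

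**Figure D5:**
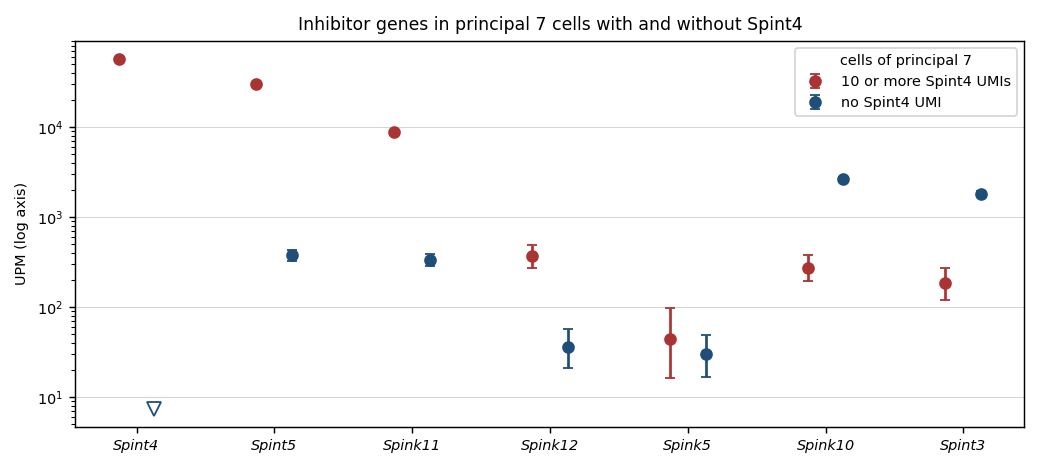
Level (UPM, log axis) of 7 inhibitor genes in principal 7 cells with at least 10 *Spint4* UMIs (38 cells) and with none (310 cells), with exact Poisson 95% intervals; the open triangle is the upper limit for 0 UMIs. *Spint5*, *Spink11* and *Spink12* are higher in the first group, *Spink10* and *Spint3* in the second.

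In principal 7, shares of cells after drawing come from the same cells and counts, so they describe the same split again. In the 119 drawn cells of principal 7, *Spint4* with *Spink11* had an odds ratio of 103 (20.8 to 1041), *Spint4* with *Spint3* 0.0615 (0.0139 to 0.206) and *Spint4* with *Spink10* 0.0303 (0.00721 to 0.104). *Spint3* and *Spink10* were found together, with an odds ratio of 6.78 (2.56 to 19.3), and also in principal 6, where it was 7.38 (2.65 to 23). The odds ratio of *Spint3* with *Spint5* was 0.334 (0.140 to 0.778) in principal 7 and 1.61 (0.643 to 4.35) in principal 6. Of the drawn cells with *Spint5*, 45.2% in principal 7 and 72.7% in principal 6 also held *Spint3*. Among all genes with at least 100 UMIs in the 38 cells, the largest ratios over the 310 cells after *Spint4* and *Spint5* were those of *Gm6792* (47.0 times), *Agt*, the angiotensin precursor (37.8), *Ap1s2* (30.9), *Spink11*, *Defb30* (24.2) and *Lcn5*, an epididymal retinoic acid-binding lipocalin (18). In the other direction, among genes with at least 100 UMIs in the 310 cells, they were *Wfdc16* (40.0 times), *Defb43* (39.6), *Defb2* (36.6), *Gm17252* (35.1) and *Ptgds*, a prostaglandin D synthase (27.2). These genes were taken by the size of the ratio, after the values were seen. Over the 15 subclusters, *Gm6792*, *Agt*, *Spink11*, *Defb30* and *Lcn5* were highest in principal 4 and *Ap1s2* in principal 2. Of the genes higher in the 310 cells, *Wfdc16* was highest in principal 7, *Defb43* and *Defb2* in principal 8, *Gm17252* in principal 6 and *Ptgds* in principal 10.

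For each gene, the 3 genes with the most similar profile over the 15 subclusters (Pearson correlation of log2(UPM + 1), among 7792 genes) were listed. The nearest to *Spint4* was *Spint5* (r = 0.96), followed by *Abca4* (0.89) and *Gstm6* (0.87), and the nearest to *Spint5* was *Spint4*, followed by *Defb23* (0.95) and *Abca4* (0.92). *Spink10* was nearest to *Wfdc6a* (0.99), *Tmed3* and *Smarca1* (both 0.96), and *Spint3* to *Abcb5*, *Ina* (both 0.96) and *Mme* (0.95). *Spink5* was nearest to *D730048I06Rik* (0.97), *Lcn12* (0.94) and *Adam7* (0.91), *Spink11* to *Gal3st4* (0.98), *Gm6792* (0.96) and *Muc5b* (0.95), *Spink12* to *Spag11a* (0.96), *Ido1* and *St6gal1* (both 0.94), and *Spink14* to *Disp2* (0.95), *Svs4* and *Lce6a* (both 0.94). Subclusters of 1 library share its dissection and its cell-free RNA, so these values are descriptive.

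Outside principal cells most levels were lower. The highest was that of *Spink11* in the 11 caput immune cells, with 41 UMIs (1340 UPM), which is 21% of the caput principal cell level (15.1 to 28.6). In the corpus, *Spint4* was at 50.7 UPM in basal cells, 203 in clear cells and 44.7 in stromal cells, which is 0.876%, 3.52% and 0.772% of the principal cell level. The ratio of *Spint4* to *Spint5* UMIs was 1.70 in principal cells (1.64 to 1.76), 1.39 in basal (1.05 to 1.84), 1.36 in clear (0.986 to 1.88) and 1.60 in stromal cells (1.13 to 2.28). In 81 drawn corpus clear cells, *Spint4* was found in 11.1% (unthinned 8.33%) and *Spint5* in 16% (unthinned 15.2%), above the shares in stromal cells. Whether cell-free RNA is the source of these counts was not tested. Where principal cells were themselves low, the order did not hold: in the caput *Spint4* was at 85.3 UPM in principal and 86.5 in clear cells, and in the vas deferens *Spink11* was at 108 in principal and 407 in clear cells (61 UMIs in 38 cells). In caput principal cells, 1 cell held 120 of the 147 *Spint4* and 37 of the 54 *Spint5* UMIs. *Spint5* was at 31.3 UPM in caput principal and 45.1 in caput clear cells (12 UMIs), which did not differ beyond counting error. *Spink5* was at 78.7 UPM in caput basal cells, 8.92% of the principal cell level (7.29 to 10.8). For *Spink11*, 10 cells of other types with at least 10 UMIs held 406 of its 902 UMIs outside principal cells, and 7 of these 10 were called doublets. A T cell was among these 10, and of the immune cells only those of the caput held that many UMIs. The caput immune level of *Spink11* thus rests in part on such a cell.

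Other genes of these families showed a similar range of patterns. The 4-fold rule for 1 library was passed by 6.61% of the 9122 genes tested in principal cells. Of 9 further *Spink* and *Spint* genes, 7 could be tested in principal cells and 4 passed it. They were *Spink2*, an inhibitor known from sperm (573 UPM in the caput), *Spink13* (320 in the caput), *Spinkl* (478 in the cauda) and *Spink4* (74.1 in the vas deferens). *Spink8* was high throughout, with 6735 (caput), 39613 (corpus), 43844 (cauda) and 25583 UPM (vas deferens), and *Spint2*, a membrane-anchored Kunitz inhibitor, was even, at 714 to 1018 UPM. Of 19 *Wfdc*, *Svs* and Kunitz genes of the chromosome 2 region, 13 could be tested and 3 passed: *Wfdc13* (2177 UPM in the corpus), *Wfdc6b* (252 in the cauda) and *Svs4* (75.3 in the cauda). *Wfdc13*, the gene just before *Spint4*, had its highest subcluster in principal 7 as well (3200 UPM). *Eppin*, which carries both a WAP and a Kunitz domain, was present with 445 (caput), 356 (corpus) and 252 UPM (cauda).

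Genes for other proteins with such domains were described in the same way. Of 12868 genes with at least 20 UMIs in a cell type, 16.4% were highest in principal cells, 27.2% in clear cells and 11.7% in stromal cells. Of 10 genes for proteins with a Kunitz domain, 2 could be tested in principal cells (*App* and *Aplp2*) and 0 passed, and of 8 measured in any cell type 0 were highest in principal cells. Of 16 genes for proteins with a Kazal-like domain, 9 could be tested and 3 passed, at low levels: *Htra1* (86.7 UPM in the corpus), *Spock1* (23.8 in the caput) and *Fstl3* (20.3 in the caput). Stromal cells had the highest level for 9 of the 15 measured. Among 49 trypsin-like serine proteases, 38 were in the matrix, 14 could be tested in principal cells and 5 passed: *Ovch2* (345 UPM in the caput), *Klk1b26* (35.6 in the cauda), *Hgfac* (31.9 in the caput), *Prss22* (19 in the cauda) and *Klk1b8* (17.1 in the vas deferens). The *Klk1b* genes are close paralogs among which reads could be misassigned or lost.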

How the data were processed

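The authors made 1 10x 3′ library from each of 4 segments, aligned reads to mm10 with HISAT2 2.0.4 and counted UMIs on RefSeq genes with ESAT, leaving out reads that map to several places. They then removed cell-free RNA with a modified SoupX. The deposited counts are whole UMIs after that removal, which took 5.80%, 7.30%, 5.74% and 2.49% of the UMIs of caput, corpus, cauda and vas deferens principal cells. The size factor of each cell, a ratio computed by the authors with scran, was used only in an alternative. Cell types and subclusters are those of the deposited table.

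UMIs were summed over cells and divided by the group's total (UPM). A restricted gene had at least 20 UMIs in its highest group and 4 times every other group, with groups under 3 UMIs raised to 3. The 95% intervals cover counting error only. They are exact Poisson intervals (levels), exact conditional binomial intervals (ratios), Clopper-Pearson intervals (shares) and conditional intervals (odds ratios). A share of 0 is given with the limit that 3 cells of the total would give. For shares, 1000 UMIs were drawn from each cell with a fixed seed. No test was run and no p-value is given. Doublets were called against simulated doublets (178 cells) and kept.

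The genes named are the 8 inhibitors, the 3 most similar genes of each, and from each list the genes passing the 4-fold rule (up to 6) or the most abundant. The genes compared within principal 7 and the threshold of 10 *Spint4* UMIs there were chosen after the values were seen. The 8 genes and the lists were chosen with earlier results of these data known. Promoter sequences and gene positions are from RefSeq (GRCm38.p6, the assembly of mm10), where all 3 Kunitz genes were matched by symbol. Computations ran in Python 3.11.15 (scipy 1.17.1 for intervals, scikit-learn 1.9.0 for doublets).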

Additional observations from a re-analysis of the deposited data

How the results depend on the processing

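No paired analysis was possible because each segment has 1 library and no test was run. The count of 8 genes higher in principal cells than in every other cell type was 8 under all 10 alternatives run. The count of 3 genes restricted to 1 library became 5 at a 2-fold threshold, 6 without the caput library, 7 without the corpus library and 5 without the cauda library, since fewer libraries were then compared. It was 4, with *Spink12* added, for means over cells or with size factors. The count of 6 genes that share their highest subcluster takes principal 10 for *Spink14*, which was within counting error of principal 8. This count was 6 in every alternative, but the pairs were not always the same. For means over cells *Spink14* moved from principal 10, the highest of *Spink10*, to principal 8, the highest of *Spint3* in the main values. *Spint4* and *Spint5* moved to principal 6 without the principal 7 cells with at least 10 *Spint4* UMIs, an alternative chosen after seeing the data. Those cells held nearly all *Spint4* UMIs of principal 7 and were left out there only, so a fall of principal 7 was built in. How often other genes share a highest subcluster was not computed. The ratio of *Spink11* in corpus over caput turned to 0.635 for means over cells and 0.650 with size factors, and the cause was not tested. Of 48 values of such ratios over the 8 genes, 27 moved beyond counting error without turning, by at most 4.72 times (*Spint4*). The *Spint4* ratio became 321 without the highest cell of each library and 21.7 without its 10 highest cells, all from the corpus. The share of corpus principal cells with both *Spint4* and *Spint5* was 4.35% in principal 5, 2.96% in principal 6, 21.6% in principal 7 and 3.40% without principal 7. The odds ratio was 18.4 with another seed, 18.5 with 500 UMIs drawn, 36.2 with at least 2 UMIs, 42.8 in principal 7, 4.49 in principal 6 and 3.86 without principal 7 (interval 1.24 to 11.7).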

Other observations

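Together the 8 genes took 6.11% of all UMIs in principal 4, 3.10% in principal 3, 2.45% in principal 7 and 0.00632% to 0.0212% in the vas deferens subclusters, principal 12 to 15. After drawing 1000 UMIs from each cell, a cell held UMIs of at least 3 of the genes in 71.1% of principal 3, 54.2% of principal 8 and 53.5% of principal 10 cells, and of none in 87.4% to 96.7% of cells of principal 12 to 15. In principal 7, 37.8% of cells held at least 3 of them.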
